A study of Mus musculus with 6 samples.

Results

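Autophagy is the route by which a cell wraps part of its own cytoplasm in a double membrane and delivers it to the lysosome. A kinase complex around ULK1 starts the process, a lipid kinase complex marks the membrane, and ATG9, WIPI and ATG2 proteins supply lipid to it. Conjugation enzymes then fix the small LC3 and GABARAP proteins to the membrane, and receptor proteins tie cargo to them. Macrophages use the same machinery to clear damaged organelles and engulfed microbes. The 39 genes described here are the core machinery and its receptors, a list of symbols matched to the 24972 rows of the table. No threshold on measured values entered the list, but it was drawn up with earlier results of these data known.

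Normalized RNA-sequencing counts were compared between untreated bone marrow-derived macrophages of wild-type (WT) mice and of mice that lack *Lcn10* (Lcn10-KO), a gene of the lipocalin family of small secreted carrier proteins. Both genotypes had 3 libraries, and both were differentiated in medium that held L929 cell supernatant, which supplies the growth factor that drives macrophage differentiation. The labels do not give the strain, age or sex of the mice, how the knockout was made, or whether same-genotype libraries derive from different mice. The p-values therefore reflect only how far these libraries spread, and that spread may be technical.

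A normalized count is a read count that the authors scaled between libraries, whose totals lay between 20476668 and 20636260. By an approximate fit to low values, 1 read was worth 0.822 to 1.15 normalized counts, so a library held roughly 17900000 to 24900000 reads. *Lcn10* was listed at 0 in all 6 libraries and so cannot check the genotype labels. The 9 macrophage markers were all above the filter on low values. They summed to 291773 to 301313 in WT against 310947 to 322427 in Lcn10-KO. *Lyz2* alone gave 165280 to 193715 of these sums. Of the 9 markers, *Adgre1* and *Mertk* were higher and *Csf1r* and *Cd14* lower in Lcn10-KO. Endothelial markers summed to 1401 to 1578 in WT and 1508 to 2064 in Lcn10-KO, with *Stab2* and *Vwf* higher. *Vwf* alone gave 1058 to 1283 of the endothelial sums. Neutrophil markers summed to 291 to 384 and 350 to 384 (WT, Lcn10-KO), with *Ly6g* at 0, and fibroblast markers to 2730 to 4146 and 3584 to 4076. Those of dendritic, B, T and NK, erythroid and mast cells summed to at most 40.1 in each library, with *Nkg7*, *Ncr1*, *Hba-a2*, *Hbb-bs* and *Fcer1a* among those at 0. What part these marker levels have in the results was not tested.

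All 39 autophagy genes passed the filter on low values (10 or more normalized counts in 3 or more libraries), as did 12091 genes in all. Their levels were compared per kilobase of the longest principal coding transcript in the annotation. By that measure *Sqstm1*, the receptor p62 that carries ubiquitin-tagged cargo, and *Gabarap*, a small membrane-bound adaptor, stood far above the rest in WT. They lay at 5483 ± 94.8 and 5465 ± 164 normalized counts per kilobase (mean ± SD, n = 3), and their libraries overlapped. Next came *Tax1bp1*, a receptor of ubiquitin-tagged cargo, at 1497 ± 48.0, then *Gabarapl1* at 1250 ± 98.5 and *Map1lc3b* at 1064 ± 97.1. The median gene lay at 283 and the lowest, *Atg16l2*, a relative of the conjugation scaffold ATG16L1, at 45.1 ± 1.08. The place of *Atg16l2* rests on a transcript length of 6459 bases. Before division by length *Atg10* was lowest in WT, at a mean of 257 normalized counts against 291 for *Atg16l2*. Of the 38 pairs of neighbours in this order, 24 had overlapping WT libraries, so most places in the middle of the order are not separated by their spread.

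The genotype comparison asks whether resting macrophages without *Lcn10* carry different amounts of autophagy transcripts. Of the 39 genes, 2 were higher in Lcn10-KO (5.13%), *Gabarapl1* and *Bnip3l*, and 0 were lower by limma at an adjusted p under 0.05. Among all genes tested 9.84% passed this threshold, 4.7% higher and 5.14% lower, so the share of autophagy genes past it was not above the background. At an unadjusted p under 0.05 there were 13 autophagy genes (33.3%, against 26.3% of all genes), of which 11 were higher (28.2%, against 12.4%) and 2 lower (5.13%, against 13.9%).

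The direction leaned one way by small amounts. A positive log2 fold change (Lcn10-KO minus WT, of log2(normalized count + 1)) was found in 29 of the 39 genes (74.4%), against 49.7% of all genes tested. Their median was 0.09, against −0.0011 over all genes. All 3 Lcn10-KO libraries lay above all 3 WT libraries in 16 genes (41.0%, against 15.5% of all genes) and below them in 3 (7.69%, against 16.9%). The log2 fold changes spanned −0.18 to 0.32, and no gene's 95% interval, taken one gene at a time, reached a 1.5-fold difference either way. A smaller number of cells of a type and less RNA per cell cannot be told apart in such bulk libraries.

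**Figure D1:**
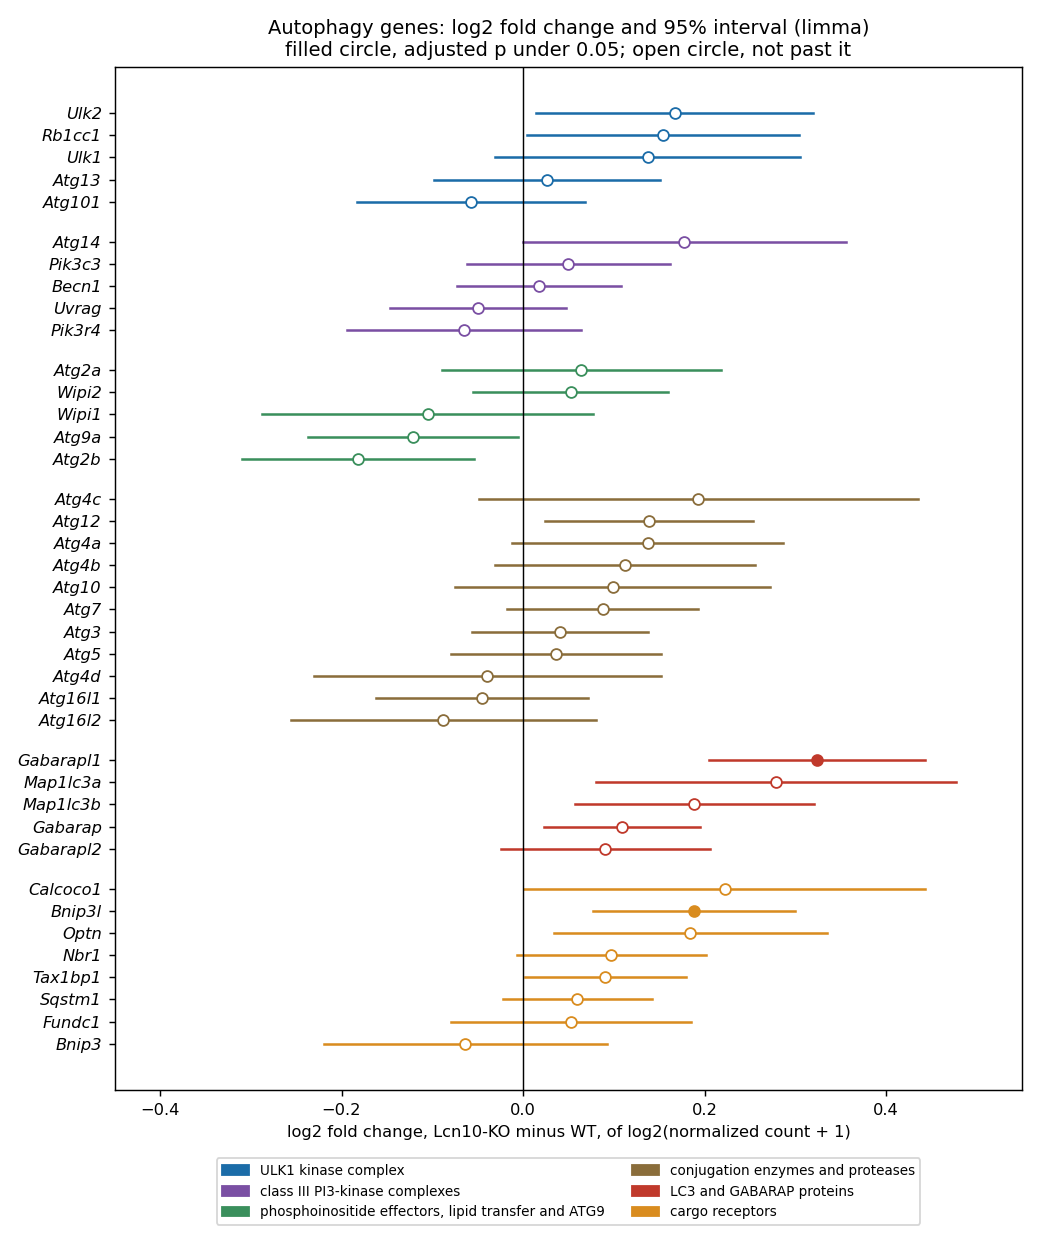
Log2 fold change with its 95% interval (limma, Lcn10-KO minus WT, x axis) for the 39 autophagy genes, in 6 role groups by colour, 3 libraries per genotype. Filled circles mark *Gabarapl1* and *Bnip3l*, the 2 genes past the threshold; all 5 LC3 and GABARAP genes lie to the right of 0, up to 0.32.

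The LC3 and GABARAP genes code for the ubiquitin-like proteins that are attached to lipid on the growing membrane, and they had the highest median of the 6 role groups, 0.19 on the log2 scale. One of the 5, *Gabarapl1*, rose. Its value was 2082, 2309 and 2435 normalized counts in WT replicates 1 to 3 and 2787, 2865 and 2875 in Lcn10-KO. The lowest Lcn10-KO library thus lay above the highest WT library, and the WT libraries were more spread than the Lcn10-KO ones. The means were 2275 ± 179 and 2842 ± 47.9 (SD, n = 3), a log2 fold change of 0.32 ± 0.05 (SE), with a 95% interval of 1.15-fold to 1.36-fold (limma adjusted p = 0.0056). *Gabarapl1* (ENSMUSG00000030161.8) lies on chromosome 6, 129533160 to 129542346, plus strand (GRCm38). Its exons overlap a transcript on the opposite strand, *1700101I11Rik*, which did not exceed 5.08 normalized counts in any library. Left out one at a time, no library ended the call, with log2 fold changes of 0.26 to 0.37 and limma adjusted p up to 0.0492. Without WT replicate 1, the lowest, it was 0.26 (adjusted p = 0.00070). In limma without the mean-variance trend and without robust estimation the adjusted p was 0.103.

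Of the other 4 genes of this family none passed. In 3 of them all Lcn10-KO libraries lay above all WT libraries, as in 15.5% of all genes tested. *Map1lc3a*, one of the LC3 genes, lay at 258, 255 and 315 in WT and 339, 329 and 334 normalized counts in Lcn10-KO. *Map1lc3b*, the LC3 gene most often used to follow autophagosomes, lay at 2415, 2881 and 2785 in WT and 3047, 3010 and 3128 in Lcn10-KO. Both were higher in every Lcn10-KO library than in any WT library, by log2 fold changes of 0.28 ± 0.09 and 0.19 ± 0.06 (SE, limma adjusted p = 0.0725 and 0.0689). *Gabarap* lay at 7155, 7399 and 7597 in WT and 7961, 8039 and 7883 in Lcn10-KO, again without overlap (0.11 ± 0.04, adjusted p = 0.101). *Gabarapl2*, also called GATE-16, lay at 1271, 1373 and 1435 in WT and 1412, 1455 and 1471 in Lcn10-KO. Here WT replicate 3 lay above Lcn10-KO replicate 1, so the groups overlapped (0.09 ± 0.05, adjusted p = 0.311). Processed pseudogenes up to 99.4% identical to the *Gabarapl2* transcript make its value uncertain, and exons of *Map1lc3b* overlap *Zcchc14* on the opposite strand, at 299 to 369 normalized counts.

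**Figure D2:**
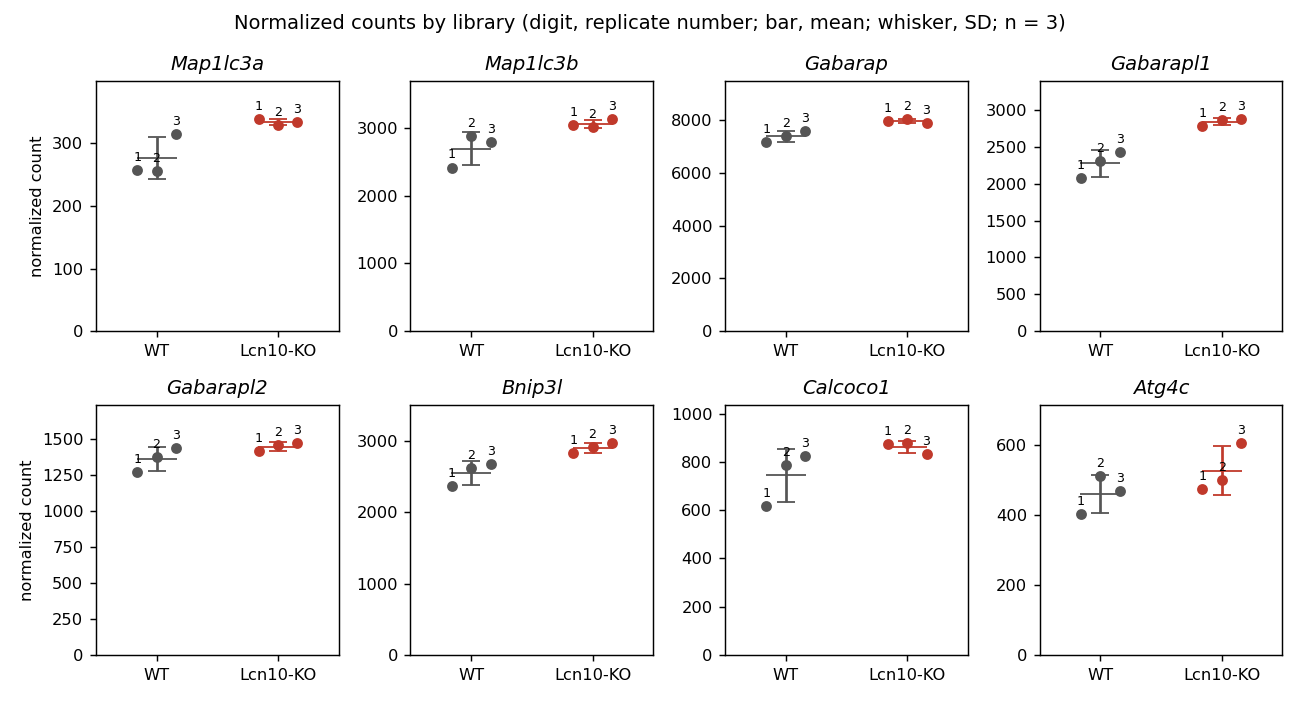
Normalized counts (y axes, from 0) of the 5 LC3 and GABARAP genes, *Bnip3l*, *Calcoco1* and *Atg4c* in each library, with the replicate number beside each point, the mean as a bar and the SD as a whisker (n = 3 per genotype). The Lcn10-KO points of *Gabarapl1*, 2787 to 2875, lie above all WT points, 2082 to 2435, whereas those of *Atg4c* overlap WT.

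*Gabarapl1* was set against its relatives within each library, with the pairs of genes chosen after the values were seen. The ratio of *Gabarapl1* to *Gabarap* was 0.291, 0.312 and 0.321 in WT and 0.350, 0.356 and 0.365 in Lcn10-KO. Its ratio to *Gabarapl2* was 1.64, 1.68 and 1.70 in WT and 1.97, 1.97 and 1.95 in Lcn10-KO. Neither ratio overlapped between the genotypes, so within these libraries *Gabarapl1* differed by more than both relatives, by 0.21 and 0.23 on the log2 scale. An exact two-sided permutation test gave p = 0.1 for each, the smallest that 3 against 3 libraries allow, and 0.2 adjusted over the 6 pairs looked at.

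The cargo receptors bind LC3 and GABARAP proteins on one side and cargo on the other. *Bnip3l*, the mitochondrial receptor also called NIX, rose, and it was the only one of the 8 past the threshold. It lay at 2365, 2620 and 2674 normalized counts in WT and 2830, 2912 and 2974 in Lcn10-KO. Between the genotypes there was no overlap, and WT replicate 1 was the lowest library. Means were 2553 ± 165 and 2905 ± 72.3 (SD, n = 3), a log2 fold change of 0.19 ± 0.05 (SE), with a 95% interval of 1.06-fold to 1.23-fold (limma adjusted p = 0.0377). *Bnip3l* (ENSMUSG00000022051.15) lies on chromosome 14, 66985239 to 67008877, minus strand (GRCm38). A pseudogene transcript, *Bnip3l-ps*, is 99.2% identical to it over 663 bases, so its own reads are uncertain. The call was lost without WT replicate 1 (log2 fold change 0.13, limma adjusted p = 0.0555) and without Lcn10-KO replicate 1, 2 or 3 (0.0789, 0.143 and 0.144). It was also lost in limma without the trend and without robust estimation (0.16).

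*Bnip3*, the close relative of *Bnip3l* that serves the same organelle, did not pass the threshold. It lay at 735, 632 and 713 in WT and 636, 715 and 638 normalized counts in Lcn10-KO, with overlapping groups and a log2 fold change of −0.06 (95% interval −0.22 to 0.09). The ratio of *Bnip3l* to *Bnip3* was 3.22, 4.14 and 3.75 in WT and 4.45, 4.07 and 4.67 in Lcn10-KO, which overlapped (exact two-sided permutation p = 0.2, and 0.3 adjusted over the 6 pairs). *Bnip3* also has pseudogenes up to 98.9% identical to its transcript. *Fundc1*, another mitochondrial receptor, had a log2 fold change of 0.05.

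The other 5 receptors lay higher in every Lcn10-KO library than in any WT library, as did 15.5% of all genes tested, but none passed the threshold. *Calcoco1*, a receptor for endoplasmic reticulum and Golgi membranes, had the largest difference among the 8, at 617, 788 and 825 in WT and 873, 878 and 831 normalized counts in Lcn10-KO. WT replicate 1 stood well below the other 5 libraries, and the log2 fold change was 0.22 ± 0.10 (SE, limma adjusted p = 0.188). *Optn*, a receptor for damaged mitochondria and bacteria, lay at 460, 431 and 427 in WT and 470, 500 and 530 in Lcn10-KO (0.18 ± 0.07, adjusted p = 0.112). *Sqstm1* lay at 11336, 11213 and 10958 in WT and 11609, 11516 and 11795 in Lcn10-KO. Its log2 fold change was 0.06 (95% interval −0.02 to 0.14, or 1.04-fold), a small difference measured with a narrow error. *Tax1bp1* and *Nbr1*, receptors of ubiquitin-tagged cargo, had log2 fold changes of 0.09 and 0.10 (adjusted p = 0.181 and 0.221).

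The ULK1 complex starts autophagy under the control of nutrient-sensing kinases. In limma 0 of its 5 genes passed the threshold (against 9.84% of all genes), and 2 had an unadjusted p under 0.05 (against 26.3%). *Ulk2*, one of its pair of kinases, lay at 1546, 1890 and 1763 in WT and 1893, 1881 and 2047 normalized counts in Lcn10-KO. *Ulk1*, the other kinase, lay at 618, 757 and 681 in WT and 699, 761 and 798 in Lcn10-KO. *Rb1cc1*, the scaffold FIP200, lay at 1127, 1355 and 1332 in WT and 1379, 1377 and 1477 in Lcn10-KO. All 3 genes were lowest in WT replicate 1 and highest in Lcn10-KO replicate 3, and the groups of *Ulk1* and *Ulk2* overlapped. Their log2 fold changes were 0.17, 0.14 and 0.15 for *Ulk2*, *Ulk1* and *Rb1cc1* (limma adjusted p = 0.155, 0.288 and 0.179). The adaptor subunits *Atg13* and *Atg101* differed less, by 0.03 and −0.06, and *Atg13* changed sign, to −0.0090, without WT replicate 1. *Ulk2* passed without WT replicate 2 (0.23, adjusted p = 0.0312).

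The class III phosphoinositide 3-kinase complexes make the lipid mark that recruits later factors. In limma 0 of their 5 genes passed the threshold, and 0 had an unadjusted p under 0.05 (against 26.3% of all genes). *Becn1*, the Beclin 1 subunit, lay between 2371 and 2479 normalized counts in WT and between 2416 and 2460 in Lcn10-KO. The groups overlapped, with a log2 fold change of 0.02 (95% interval −0.07 to 0.11). *Pik3c3*, the catalytic subunit VPS34, and *Pik3r4*, its regulatory subunit, had log2 fold changes of 0.05 and −0.06. *Uvrag*, the subunit of the endosomal form of the complex, had −0.05. *Atg14*, the subunit that directs the complex to autophagy, lay at 391, 485 and 459 in WT and 495, 525 and 485 in Lcn10-KO. WT replicate 1 again was lowest, and Lcn10-KO replicate 3 lay just under the highest WT library (0.18 ± 0.08 (SE), limma adjusted p = 0.191).

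The 5 genes for the membrane supply had 2 positive and 3 negative log2 fold changes, with a median of −0.11. In limma 0 of them passed the threshold and 2 had an unadjusted p under 0.05 (against 26.3% of all genes tested). *Atg2b*, a lipid transfer protein, lay at 796, 837 and 769 in WT and 716, 670 and 731 normalized counts in Lcn10-KO. *Atg9a*, the scramblase of the vesicles that seed the membrane, lay at 889, 859 and 828 in WT and 802, 790 and 775 in Lcn10-KO. Both were lower in every Lcn10-KO library than in any WT library, by log2 fold changes of −0.18 ± 0.06 and −0.12 ± 0.05 (SE, limma adjusted p = 0.0694 and 0.170). Such a separation, with Lcn10-KO below, was found in 16.9% of all genes tested. *Atg2a*, the relative of *Atg2b* with the same activity, had a log2 fold change of 0.06. The ratio of *Atg2b* to *Atg2a* was 0.966, 0.960 and 1.02 in WT and 0.828, 0.858 and 0.796 in Lcn10-KO, without overlap (exact two-sided permutation p = 0.1, the smallest possible, and 0.2 adjusted over the 6 pairs). *Wipi1* and *Wipi2*, which read the lipid mark, had log2 fold changes of −0.11 and 0.05. The groups of *Wipi2* were separated the other way, with Lcn10-KO above, as in 15.5% of all genes tested. At its 5′ end each of *Atg2b* and *Atg9a* overlaps exons of a neighbour on the opposite strand, *Gskip* at 615 to 707 and *Ankzf1* at 353 to 470 normalized counts. Reads from the overlap cannot be told apart where strand was not used, and its use is not stated in the labels.

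The 11 conjugation enzymes, scaffolds and proteases process LC3 and GABARAP proteins and attach them to lipid. In limma 0 of the 11 genes passed the threshold and 1 had an unadjusted p under 0.05 (against 26.3% of all genes). That gene was *Atg12*, the ubiquitin-like protein joined to ATG5, at 1290, 1406 and 1380 in WT and 1425, 1506 and 1559 normalized counts in Lcn10-KO. The groups did not overlap (0.14 ± 0.05 (SE), limma adjusted p = 0.115). *Atg4c*, one of the 4 proteases that trim LC3 proteins, had the largest difference of the 11 but a wide error, at 402, 510 and 468 in WT and 474, 499 and 606 in Lcn10-KO. Its groups overlapped and Lcn10-KO replicate 3 stood highest (0.19 ± 0.11, adjusted p = 0.297). The other proteases *Atg4a*, *Atg4b* and *Atg4d* had log2 fold changes of 0.14, 0.11 and −0.04, and *Atg4a* has a near-identical copy, *Atg4a-ps*. *Atg7* and *Atg3*, the activating and transferring enzymes of the LC3 pathway, had 0.09 and 0.04, and *Atg10*, the transferring enzyme for ATG12, 0.10. *Atg5* and *Atg16l1*, which form the complex that places LC3 on the membrane, had 0.04 and −0.05, and *Atg16l2* had −0.09. Exons of *Atg4d* and *Atg16l2* overlap those of more abundant neighbours on the opposite strand, *Kri1* at 883 to 1031 and *Fchsd2* at 597 to 723 normalized counts, which makes their values uncertain in the same way. For *Atg5*, *Atg3* and *Atg16l1* the 95% intervals, taken one gene at a time, stayed within −0.16 and 0.15, or about 1.12-fold either way.

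**Figure D3:**
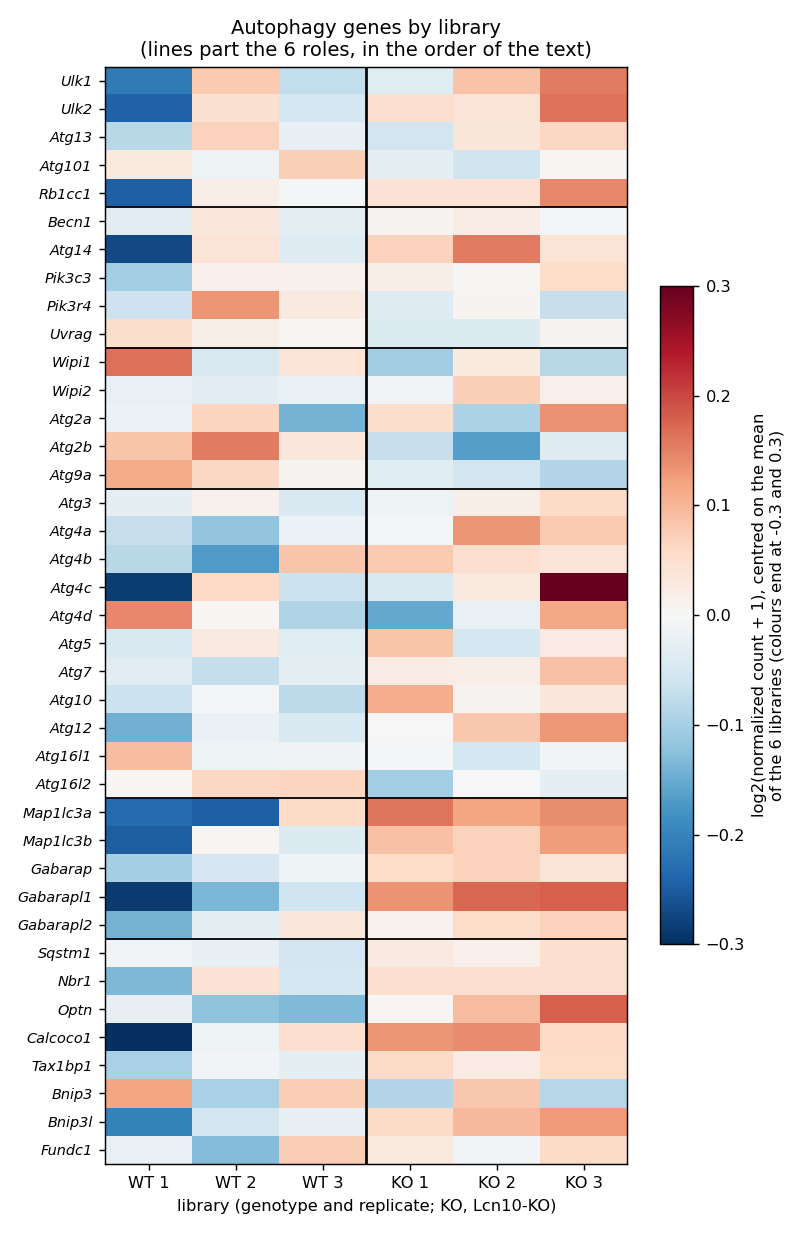
Log2(normalized count + 1) of the 39 autophagy genes (rows, in 6 role groups) in the 6 libraries (columns), each row centred on its mean. WT replicate 1 is the lowest library in 17 rows and Lcn10-KO replicate 3 the highest in 15, and the LC3 and GABARAP rows part the genotypes most clearly.

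The differences were not spread evenly over the libraries. WT replicate 1 was the lowest of the 6 libraries for 17 of the 39 genes (43.6%, against 27.6% of all genes tested) and the highest for 6 (15.4%, against 29.1%), and Lcn10-KO replicate 3 was the highest for 15 (38.5%, against 17.8%). Centred on each gene's mean, the average over the 39 genes was −0.08 in WT replicate 1, −0.01 in both other WT libraries, and 0.01, 0.03 and 0.06 in Lcn10-KO replicates 1 to 3. Without WT replicate 1 the log2 fold change was positive in 29 genes, with a median of 0.064, and *Gabarapl1* was the 1 gene past the threshold. In the LC3 and GABARAP group the centred averages were −0.20, −0.09 and −0.0047 in WT and 0.09, 0.10 and 0.11 in Lcn10-KO. Each WT library lay below each Lcn10-KO library in this group, and WT replicate 3 lay nearest to them.

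Sequences near the start sites are shown because the E-box CACGTG is the core of the element bound by TFEB and TFE3, regulators of lysosome and autophagy genes. RefSeq promoters (250 bases before to 50 after a start site, GRCm38.p6) were matched by symbol for 32 of the 39 genes, with 36 promoters in all. CACGTG reads the same on both strands. It was found in 5 of the 36 (13.9%), against 7.15% of all promoters and 10.2% of those of tested genes. The longer form TCACGTGA, which contains it, was found in 1 of the 36 (2.78%), against 0.974% and 1.89%. The 6 matches, in *Atg14*, *Atg3*, *Atg5*, *Atg7* and *Bnip3*, are given below as 30 bases each, with CACGTG in capitals and the position of its first base from the start site.
Atg3, chr16:45158723-45158752, plus strand, position −94: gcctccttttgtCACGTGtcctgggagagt
Atg3, chr16:45158746-45158775, plus strand, position −71: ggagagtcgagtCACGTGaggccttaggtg
Atg5, chr10:44268313-44268342, plus strand, position −14: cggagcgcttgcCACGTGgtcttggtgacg
Atg7, chr6:114670952-114670981, plus strand, position −132: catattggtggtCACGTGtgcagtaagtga
Atg14, chr14:47568418-47568447, minus strand, position −1: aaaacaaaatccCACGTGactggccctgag
Bnip3, chr7:138909597-138909626, minus strand, position −108: gcgcacgcgccgCACGTGccacacgctccc

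The second *Atg3* match is the one inside TCACGTGA. The RefSeq start sites of *Atg7* and *Atg14* lie 27999 and 2215 bases inside the gene as GENCODE annotates it, so their matches are near a RefSeq start but not near the first base of the annotated gene. Start sites of genes without a match can also lie inside the gene, such as those of *Atg4b* (3405 bases) and *Wipi2* (1886 bases). The 5 genes with a match had log2 fold changes of −0.06 to 0.18 (median 0.04), and the 27 without had −0.18 to 0.32 (median 0.09). These letters are not in the window of *Gabarapl1*, the core gene with the smallest p. For *Bnip3l*, the other core gene past the threshold, no RefSeq promoter was matched, so it was not searched. The 218 bases before the annotated start of *Gabarapl1*, 43.6% G or C, are shown for comparison with the matches.
Gabarapl1, chr6:129532942-129533159, plus strand: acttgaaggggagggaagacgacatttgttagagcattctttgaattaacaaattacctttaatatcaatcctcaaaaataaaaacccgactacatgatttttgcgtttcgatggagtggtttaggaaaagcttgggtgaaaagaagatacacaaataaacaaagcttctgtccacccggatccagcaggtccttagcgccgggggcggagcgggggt

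A further 67 genes that regulate autophagy or act later in it were listed by role, and 66 were tested. *Calcoco2*, the receptor NDP52, was listed at 0 in each library. In this wider list 4 of the 66 genes were higher and 1 lower (limma adjusted p under 0.05), against 4.7% higher and 5.14% lower of all genes tested, so the calls in both directions together were not above the background of 9.84%. The median log2 fold change was 0.07. Of the 15 genes for fusion of autophagosomes with lysosomes, 14 had a positive log2 fold change, 10 had separated groups with Lcn10-KO above, and 2 passed the threshold as higher. Over all genes tested these shares were 49.7%, 15.5% and 4.7%, and the list was not tested against them. *Lamp1*, a lysosomal membrane protein, lay at 33223, 35009 and 34995 in WT and 38370, 39347 and 38882 normalized counts in Lcn10-KO. *Vps39*, a subunit of the HOPS tethering complex, lay at 1931, 2070 and 1989 in WT and 2229, 2252 and 2282 in Lcn10-KO. Each rose by 0.18 on the log2 scale (adjusted p = 0.0174 and 0.0281), and each lost its call without any 1 of the Lcn10-KO libraries, with adjusted p up to 0.103 and 0.119. *Vps39* also lost it without WT replicate 3 (0.0634).

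Among the genes of the wider list past the threshold, *Ncoa4* and *Tecpr1* differed most. *Ncoa4* is the receptor that takes ferritin to the lysosome, and *Tecpr1* a membrane-binding protein of autophagosomes and lysosomes. *Ncoa4* lay at 4365, 5666 and 5481 in WT and 7160, 7593 and 8090 normalized counts in Lcn10-KO. *Tecpr1* lay at 2469, 3126 and 2861 in WT and 3610, 3873 and 4056 in Lcn10-KO. Neither overlapped between the genotypes, and both were lowest in WT replicate 1 and highest in Lcn10-KO replicate 3. Their log2 fold changes were 0.57 ± 0.10 and 0.45 ± 0.08 (SE, limma adjusted p = 0.0244 and 0.0155), or 1.48-fold and 1.37-fold. Without Lcn10-KO replicate 2 or 3 the adjusted p was 0.0957 and 0.0850 for *Ncoa4* and 0.0721 and 0.0701 for *Tecpr1*.

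Of the 23 regulators of initiation 1 passed, *Dapk1*, a kinase that acts on Beclin 1. It fell, from 2352, 2144 and 2160 in WT to 1970, 1928 and 1940 normalized counts in Lcn10-KO (−0.19 ± 0.05 (SE), limma adjusted p = 0.0289). The call was lost without any 1 Lcn10-KO library (adjusted p = 0.0773, 0.127 and 0.105). The median of the regulators was −0.04, with 10 positive and 13 negative log2 fold changes. Of the 10 further membrane and scaffold factors 1 passed, *Tecpr1*, and of the 18 tested further receptors 1, *Ncoa4*.

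**Figure D4:**
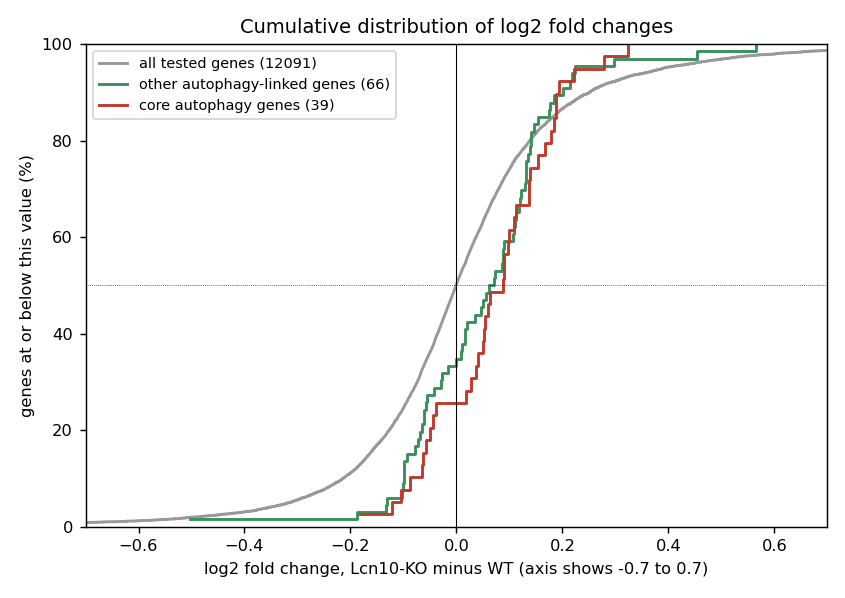
Share of genes (y axis, %) at or below each log2 fold change (x axis, Lcn10-KO minus WT, cropped at both ends) for the 39 core autophagy genes, 66 other autophagy-linked genes and all 12091 tested genes. The core curve crosses 50% at 0.09 and the curve of all genes at −0.0011, and the core genes end at 0.32 while all genes spread wider on both sides.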

How the data were processed

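The deposited values are a signal, read counts that the authors scaled between libraries, as the non-whole values with nearly equal totals show. Build mm10 and the tools bcl2fastq, DESeq2, Salmon 0.11.2 and STAR 2.6.1a are named per the submitters' processing notes, whose roles, annotation and strand setting were not given in the sources used here. Of values under 6, 93.7% to 94.2% were whole multiples of 1 read within 0.1 reads, and of those from 6 to 30, 23.3% to 75.9%. The size of 1 read was fitted on values under 6, and a small error in it lowers the share at higher values. Whole reads were not recovered, and no count test was run.

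Genes that reached 10 in 3 or more libraries were fitted as log2(value + 1) on genotype alone, using limma 3.58.1 (R 4.3.3) with its trend and robust options. This scale understates the change of low genes. Benjamini-Hochberg adjustment ran over 12091 genes, with a threshold of 0.05. The procedure was tested on simulated counts with the same dispersion for every gene and no shift of a whole library. These data may differ in both, so that test does not measure the error of the calls here. Positions and transcript lengths came from GENCODE M21 (GRCm38, which mm10 names), and near-identical copies from blastn 2.17.0 (at least 95% identity over 200 bases). The 39 members and the other lists were chosen with earlier results of these data known. Values were given in full for members past the threshold, the LC3 and GABARAP genes and the 3 other members with the largest differences, and the per-library values of further members were added after they were seen. In the wider list up to 4 genes per role, by p among those past the threshold, were named.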

Additional observations from a re-analysis of the deposited data

How the results depend on the processing

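The 39 core genes gave 2 calls with pseudocounts of 0.5 and 10, no filter or a minimum of 50, quantile normalization, median ratio rescaling and a correction for GC content and length, an alternative added after seeing the data. In limma without the trend and without robust estimation 0 core genes, 0 of the wider list and 25 genes in all passed (12 higher, 13 lower), with the smallest adjusted p of a core gene at 0.103. Leaving out 1 library at a time gave 1 to 4 core genes (0 lower throughout), 0 to 11 of the wider list and 173 to 1652 of all genes (91 to 802 higher, 82 to 850 lower), with a core median of 0.064 to 0.098. The largest losses came without Lcn10-KO replicate 1 (567 genes in all), replicate 2 (206) and replicate 3 (173). The core gained *Map1lc3b* and *Ulk2* without WT replicate 2 (4 calls) and *Map1lc3a* without WT replicate 3 (3 calls). Of the genes not past the threshold, *Atg13* changed sign without WT replicate 1 (−0.0090; range −0.0090 to 0.067 over the 6 libraries left out) and *Atg4d* without WT replicate 1 (0.023) and without Lcn10-KO replicate 1 (0.028; range −0.11 to 0.028). The wider list gave 8 calls under quantile normalization. The cause of these changes was not tested. With the replicate number as a block, 3 core genes passed, *Map1lc3b* being added (adjusted p = 0.0347), with 9 of the wider list and 1607 genes in all. Deviations of same-numbered libraries from their group means correlated at 0.0382, 0.0734 and 0.014. Those of differently numbered libraries correlated at −0.0634 to 0.0262. Correlations this small cannot decide whether the numbers pair the libraries, and the labels do not say. With 3 libraries per genotype the precision is limited, and the widest upper bound among core genes, that of *Map1lc3a*, is 1.39-fold.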
